A study of Mus musculus with 26 samples.

Results

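The 10 genes described here, Notch1, Notch2, Dll1, Hes1, Hes5, Hey1, Id1, Id2, Id3 and Id4, were taken by symbol: every probe set annotated to that single gene was used, 15 of the 45037 probe sets tested and 10 of the 17097 genes with a symbol. The series measured gene expression on 26 mouse expression arrays in C57BL/6 mice, in a model of the Myc-driven Group3 class of medulloblastoma, a childhood tumor of the cerebellum. Every group carried Trp53-/- and Cdkn2c-/-, the loss of the p53 tumor suppressor and of the p18Ink4c cell cycle inhibitor, so no group had intact alleles of either. Sample titles carried 1 of 2 codes, dka or mmm, and groups were compared only within a code.

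Under the code dka there were 3 arrays each of Group3 secondary tumors (Trp53-/-, Cdkn2c-/- with Myc), Group3 tumors of the same genotype, Group3 neurospheres (free-floating cultures of medulloblastoma cells of that genotype), and Trp53 neurospheres (granule neural progenitors, Trp53-/-, Cdkn2c-/- without added Myc, which the design text dates to postnatal day 7). Under the code mmm there were 3 arrays of Group3 tumors given pemetrexed plus gemcitabine, 3 given gemcitabine, 2 given pemetrexed, 2 untreated Group3 tumors and 4 arrays of Group3 neurospheres. Pemetrexed is an antifolate and gemcitabine a nucleoside analogue. No dose, treatment time or age of the tumor-bearing animals was used here. The labels state neither how Myc was introduced, nor what host carried the tumors, nor what "secondary" refers to. Whether each array had its own animal or culture is not labelled either, and p-values measure only the spread between arrays. The replicate numbers used below are not from the labels but follow the order of the samples within each group.

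Notch receptors are cut after binding a ligand such as Dll1 on a neighbouring cell, and the freed intracellular part joins the DNA-binding protein Rbpj to switch on Hes and Hey genes. Hes and Hey proteins are repressors that keep neural progenitors from differentiating. Id proteins lack a DNA-binding region and hold back the E proteins that neuronal bHLH factors need as partners, and BMP signalling through Smad proteins is a well-known inducer of Id genes.

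Promoters are shown for 3 members that moved in one direction together in the neurosphere comparison below, Hes5, Notch1 and Id3. Each runs 5′ to 3′ over 300 bases, from 250 before to 50 after the gene's start, and comes from RefSeq on GRCm38.p6. The Hes5 window is chr4:154960673-154960972 on the plus strand, Notch1 is chr2:26503773-26504072 on the minus strand, and Id3 is chr4:136143572-136143871 on the plus strand. Capitals mark the letters GTGGGAA, the core of the motif known for Rbpj, on either strand.
Hes5: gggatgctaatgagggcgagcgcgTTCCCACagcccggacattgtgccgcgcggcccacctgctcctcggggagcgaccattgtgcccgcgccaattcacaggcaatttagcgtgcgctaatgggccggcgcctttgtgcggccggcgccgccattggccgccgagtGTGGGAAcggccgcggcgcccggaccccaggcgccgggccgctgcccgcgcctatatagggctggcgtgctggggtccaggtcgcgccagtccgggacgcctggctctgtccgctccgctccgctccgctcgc
Notch1: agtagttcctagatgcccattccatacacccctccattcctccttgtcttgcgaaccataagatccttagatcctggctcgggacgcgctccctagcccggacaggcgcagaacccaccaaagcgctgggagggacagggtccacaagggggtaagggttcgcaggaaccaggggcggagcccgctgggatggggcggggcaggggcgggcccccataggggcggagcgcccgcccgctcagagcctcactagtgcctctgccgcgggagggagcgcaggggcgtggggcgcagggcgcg
Id3: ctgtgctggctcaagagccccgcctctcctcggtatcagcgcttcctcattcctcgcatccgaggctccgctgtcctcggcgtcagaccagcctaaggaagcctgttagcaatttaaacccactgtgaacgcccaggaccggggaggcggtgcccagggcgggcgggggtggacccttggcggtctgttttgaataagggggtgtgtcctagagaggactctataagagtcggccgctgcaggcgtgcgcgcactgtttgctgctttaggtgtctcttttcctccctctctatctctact
GTGGGAA or its reverse complement stood in 6.38% of 32851 mouse promoter windows of this length. The Hes5 window held it 2 times, once on each strand, with first bases 226 and 83 bases upstream of the start. The other windows found, for Notch1, Notch2, Id2, Id3, Id4 and the 2 starts of Dll1, did not hold these letters, and no window of a member held CACGTG, the letters of an E-box, which stood in 7.15% of all windows. These matches describe letters only. Promoters of Hes1, Hey1 and Id1 are not shown.

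All levels are log2 RMA intensities as deposited, and each gene is described by its brightest probe set unless another is named. A difference was called when limma's Benjamini-Hochberg adjusted p over all 45037 probe sets was under 0.05, and an SE is that of the fitted log2 difference. Array medians lay between 4.65 and 4.82, so a level near or below that is dim and a fold change against it may understate the true ratio. Levels spanned 2.56 to 13.9 on the dka arrays, and -0.41 to 16.1 on the mmm arrays other than Group3 neurosphere replicate 7, which spanned 2.64 to 13.7. The mean of mmm Group3 neurosphere replicates 4 to 6 lay unusually close to the dka Group3 neurosphere mean, with an SD of the difference over probe sets of 0.13, against 0.22 to 0.29 for the other sets of 3 of the 4 mmm arrays and 0.87 between the untreated tumors of the 2 codes, so the neurosphere levels under the 2 codes are not independent. On mmm Group3 neurosphere replicate 4, Olig2 was 5.32 against 9.54 to 11.8 on the other 3, and on replicate 5 Neurod1 was 8.93 against 2.23 to 4.51.

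The tissue labels were checked against cell type markers. Granule progenitor genes were high in the Trp53 neurospheres, as their label has it: Atoh1 was 9.01 to 9.998 there, against 3.47 to 3.99 in the dka Group3 neurospheres, which carry no granule progenitor label. Barhl1 was 9.48 to 9.77 in Trp53 neurospheres and 3.87 to 4.12 in dka Group3 neurospheres. Microglial genes, a hemoglobin gene and, at lower levels, pericyte genes were also present in Trp53 neurospheres, which goes against a label of cultured progenitors alone. The hemoglobin gene Hba-a1 was at 8.92 to 10.5 there, against 4.53 to 4.98 in dka Group3 neurospheres, while Alas2, the other red blood cell gene, was dim in both. Pericyte genes averaged 4.98 to 5.88 in Trp53 neurospheres and 3.85 to 4.02 in dka Group3 neurospheres. Endothelial genes averaged 4.56 to 5.02 in Trp53 neurospheres, near the array medians, and 3.99 to 4.09 in dka Group3 neurospheres. The microglial genes of Trp53 neurospheres, at 6.36 to 6.98, lay close to the range of the dka Group3 tumors, 6.46 to 7.06. Every comparison with Trp53 neurospheres below includes these markers. These are bulk samples, in which fewer cells of a type and less RNA per cell cannot be told apart.

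**Figure D1:**
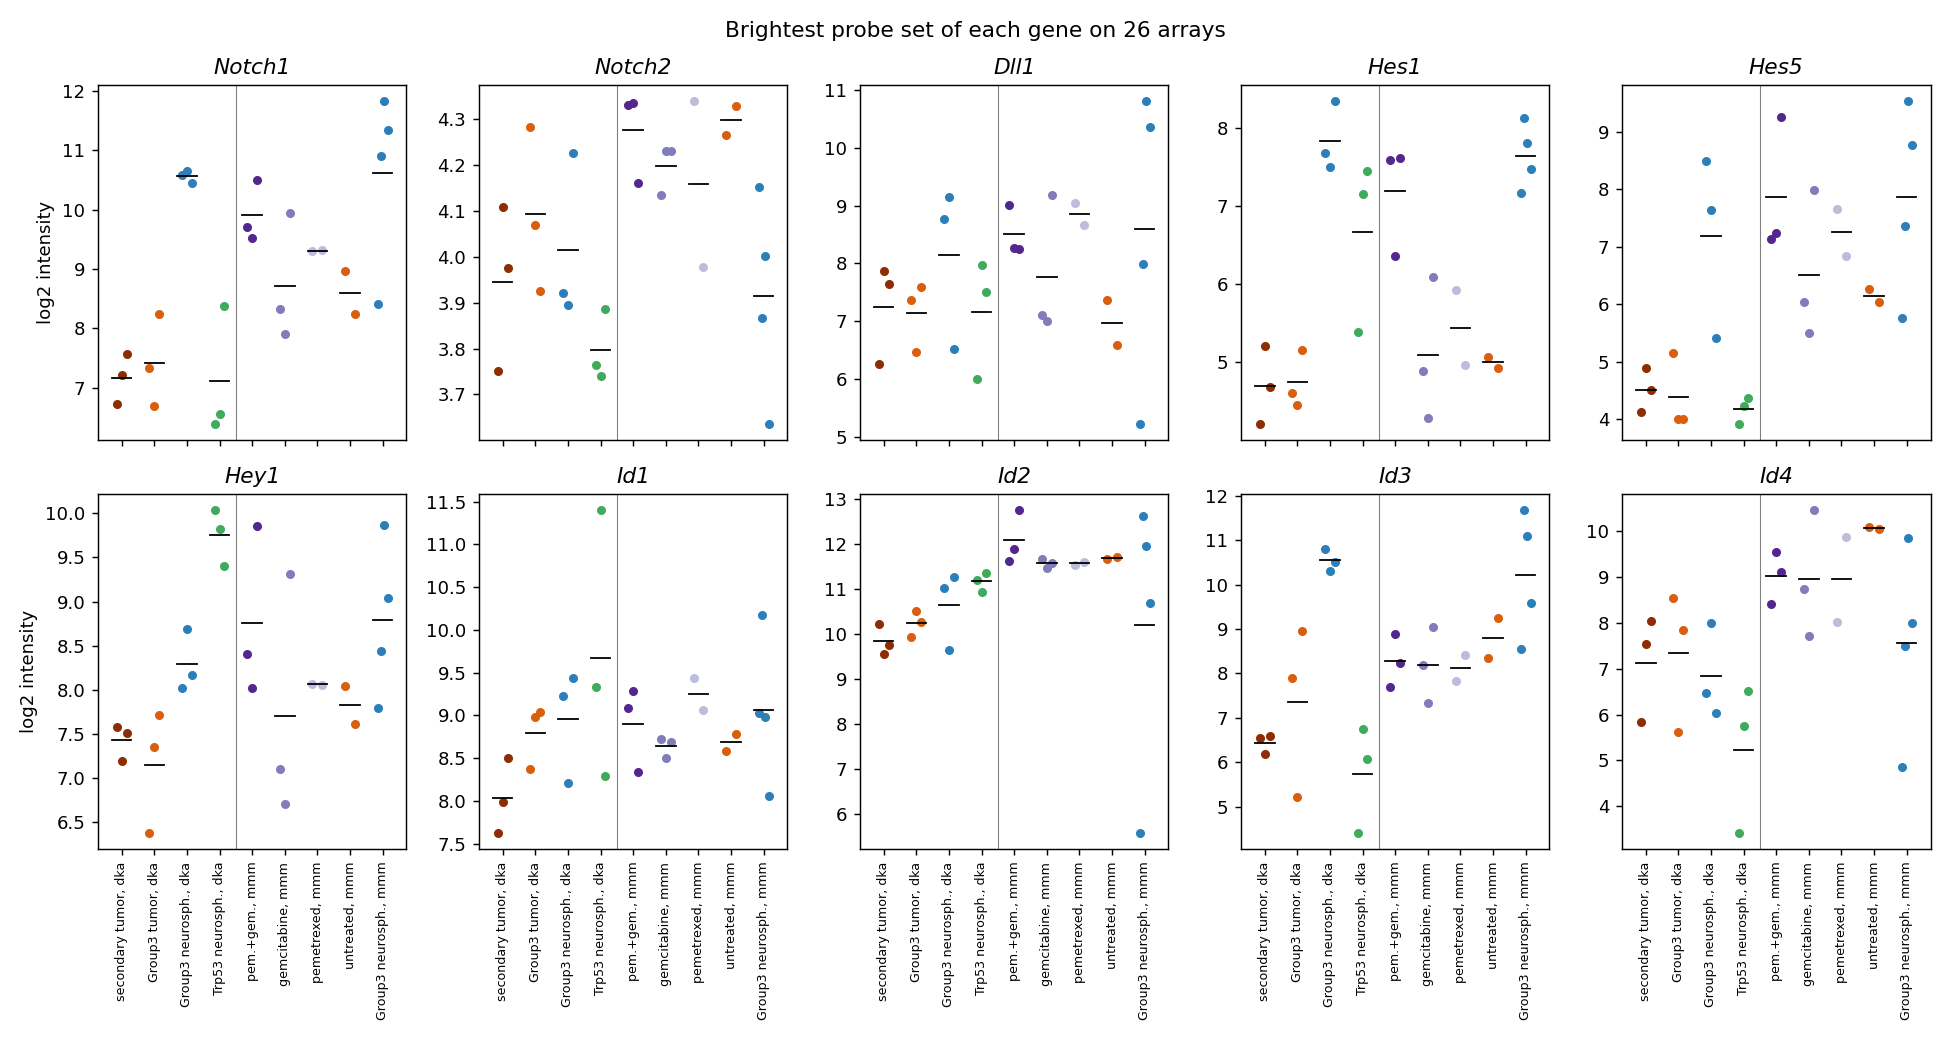
The vertical axis gives the log2 intensity of the brightest probe set of each of the 10 genes, with its own range in each panel. Every point is 1 array and the short lines are group means; the vertical line divides the 12 dka arrays on the left from the 14 mmm arrays on the right. Notch1, Hes1 and Id3 lie higher in dka Group3 neurospheres than on any dka tumor array, while Notch2 stays between 3.64 and 4.34 throughout.

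In Myc-carrying Group3 neurospheres, Notch1, Hes5 and Id3 were higher than in Trp53 neurospheres, by 3.01 to 4.81 log2 units. Of the 15 probe sets, 4 were higher and 0 lower (26.7% called, against 20.1% of all probe sets in either direction, 9.77% higher and 10.4% lower), a share near that background, with a median difference of 0.98 over the members, against 0.037 over all probe sets. Both Notch1 probe sets were among the 4. The 5 negative differences were those of Hey1, Id1 and all 3 Id2 probe sets, and none of them was called.

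Notch1, a receptor, had levels of 10.59, 10.66 and 10.45 in Group3 neurospheres, against 6.39, 6.56 and 8.38 in Trp53 neurospheres. The groups did not overlap, and the third Trp53 neurosphere array was the highest of its group. The difference was 3.45 (SE 0.70, limma adjusted p = 0.00126), and the second Notch1 probe set gave 2.32 (SE 0.56, limma adjusted p = 0.00529). Notch2, the other receptor, was below its array's median on all 26 arrays, and was called in no comparison with all arrays weighted equally. Dll1, the ligand, had levels of 8.77, 9.15 and 6.52 in Group3 neurospheres, against 6.00, 7.98 and 7.51 in Trp53 neurospheres. Those ranges overlapped and Dll1 was not called.

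Hes5, a repressor and Notch target of neural progenitors, had levels of 8.49, 7.64 and 5.41 in Group3 neurospheres, against 3.92, 4.23 and 4.37 in Trp53 neurospheres. All Trp53 neurosphere arrays were dim, and the lowest Group3 array stood above them. The difference of 3.01 (SE 0.85, limma adjusted p = 0.0159) was not called without Trp53 neurosphere replicate 1 (adjusted p = 0.0539), Group3 neurosphere replicate 1 (0.0935) or Group3 neurosphere replicate 2 (0.0574). Hes1, a classical Notch target, had levels of 7.68, 7.50 and 8.35 in Group3 neurospheres and 5.39, 7.16 and 7.45 in Trp53 neurospheres. The ranges did not overlap but nearly met, and the difference of 1.17 (SE 0.51, limma adjusted p = 0.116) was not called. Hey1, a related repressor, ran the other way, at 8.02, 8.69 and 8.17 in Group3 neurospheres and 10.04, 9.83 and 9.41 in Trp53 neurospheres. That difference of -1.47 (SE 0.58, limma adjusted p = 0.0852) passed the threshold with the dka arrays alone (0.00852) and with array weights (0.0212), in a range up to 0.213 over 13 other settings.

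Id3 was at 10.80, 10.32 and 10.52 in Group3 neurospheres, against 4.40, 6.74 and 6.07 in Trp53 neurospheres. The groups stood far apart, with a difference of 4.81 (SE 0.82, 28.1-fold, limma adjusted p = 0.000264), the largest among the members in this comparison. Id1 lay at 9.23, 8.21 and 9.44 in Group3 neurospheres and 9.33, 11.40 and 8.30 in Trp53 neurospheres. Id1 overlapped between the groups, as did Id4 and the brightest Id2 probe set, and none of these 3 genes was called. The other Id2 probe sets did not overlap and were lower in Group3 neurospheres. They were at 9.37 to 11.17 and 3.81 to 7.18 there, against 11.19 to 11.40 and 7.29 to 7.64 in Trp53 neurospheres.

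In the same comparison Notch3, a further receptor, rose by 2.38 (SE 0.36, limma adjusted p = 9.84e-05), the only called gene of 6 measured ligands and receptors outside the members. Of 24 Notch processing and modifier genes, 5 rose and 3 fell, among them Aph1b, a gamma-secretase subunit, by 4.0, and the Deltex genes in opposite directions, Dtx4 with 3.74 and Dtx1 with -3.32. Of 16 nuclear factors and targets, 3 rose and 2 fell, and Nrarp, a Notch target that dampens the pathway, rose by 2.89 (SE 0.56, limma adjusted p = 0.000853). Of 23 BMP and Smad genes, 3 rose and 5 fell. The BMP receptor Bmpr1b rose by 3.59 and the ligand Bmp7 by 2.38, while Bmp5 fell by 3.96. Of 11 bHLH partners and antagonised factors, 3 rose and 4 fell. Neurod1, a neuronal differentiation factor, fell by 8.37 and Atoh1, the granule progenitor factor, by 5.83, while Olig1 rose by 4.77.

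Marker lists of other cells moved as well. Astrocyte genes averaged 7.49 to 7.71 in Group3 neurospheres, against 5.31 to 5.89 in Trp53 neurospheres, and 3 of 8 rose. Gfap at 3.75 to 4.54 and Aqp4 at 4.14 to 4.25 were dim in Group3 neurospheres, while Aldoc was at 12.7 to 13.3. Microglial and macrophage genes averaged 3.74 to 3.97 in Group3 neurospheres and 6.36 to 6.98 in Trp53 neurospheres, with 8 of 10 lower. Neural stem cell genes averaged 8.47 to 8.75 in Group3 neurospheres and 7.58 to 8.34 in Trp53 neurospheres, with 3 of 8 higher and 2 lower. Hba-a1 fell by 4.80 (SE 0.44), and so did 2 of 4 pericyte genes, 1 of 10 endothelial genes and 8 of 9 granule genes. The part of these cells in the members' differences was not tested.

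**Figure D2:**
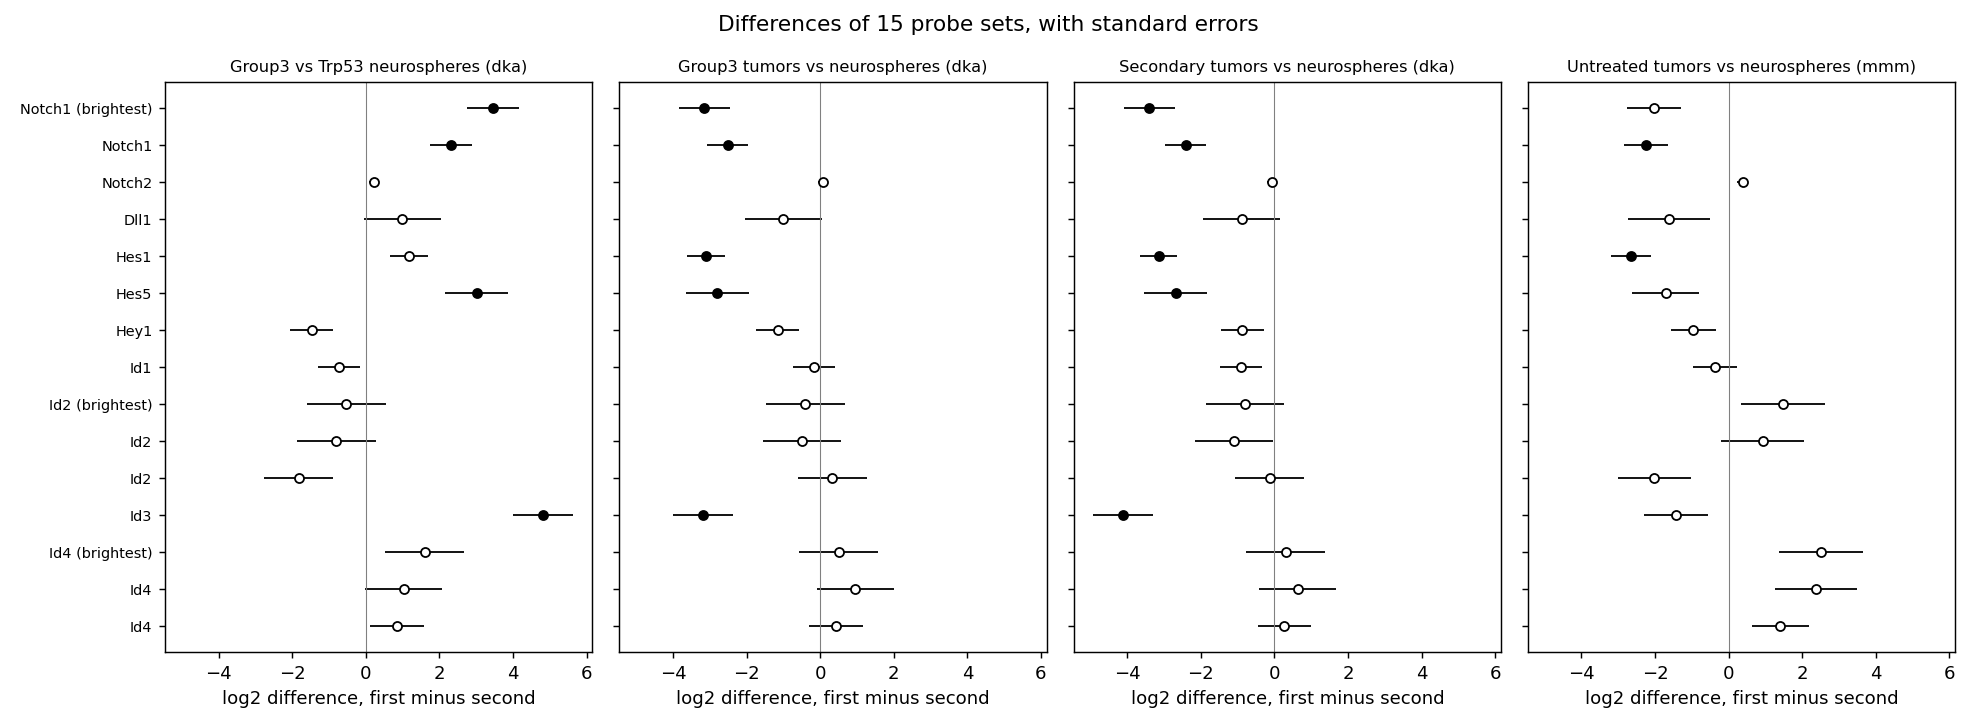
Log2 differences (horizontal axis) of the 15 probe sets (rows) in 4 comparisons, first-named group minus second, with bars of 1 SE; filled points passed an adjusted p of 0.05. Both Notch1 probe sets, Hes1, Hes5 and Id3 are filled and negative in both dka tumor comparisons with neurospheres, and only Hes1 and the second Notch1 probe set are filled under the code mmm.

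Group3 tumors had less Notch1, Hes1, Hes5 and Id3 than Group3 neurospheres of the same genotype. Of the 15 dka probe sets, 5 were lower and 0 higher (33.3% called, against 13.8% of all probe sets in either direction, 6.53% higher and 7.28% lower), with a median of -0.50 over the members, against 0.0096 over all. The Group3 neurosphere arrays are the same as those compared with Trp53 neurospheres above, so the 2 comparisons share them and are not independent.

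Notch1 was at 7.33, 6.69 and 8.24 in dka Group3 tumors, against 10.59, 10.66 and 10.45 in Group3 neurospheres. All 3 tumor arrays lay well below every neurosphere array. Notch1 fell by 3.15 (SE 0.70, limma adjusted p = 0.00437), and its second probe set fell by 2.51 (SE 0.56, limma adjusted p = 0.00447). Dll1 was at 7.37, 6.48 and 7.59 in tumors and 8.77, 9.15 and 6.52 in neurospheres, where the third neurosphere array fell within the tumor range, and it was not called.

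Hes1 was at 4.61, 4.45 and 5.15 in dka Group3 tumors, against 7.68, 7.50 and 8.35 in Group3 neurospheres. The tumor arrays stood near the array median, so the fold change may be a lower limit. Hes1 fell by 3.10 (SE 0.51, 8.59-fold, limma adjusted p = 0.000348). Hes5 was at 5.15, 3.998 and 3.997 in tumors and 8.49, 7.64 and 5.41 in neurospheres. The highest tumor array and the lowest neurosphere array were close together. Hes5 fell by 2.80 (SE 0.85, limma adjusted p = 0.0334), but not without tumor replicate 2 (0.101), tumor replicate 3 (0.0929), neurosphere replicate 1 (0.155) or neurosphere replicate 2 (0.113). Hey1, at 6.37, 7.35 and 7.71 in tumors and 8.02, 8.69 and 8.17 in neurospheres, was below every neurosphere array on every tumor array, with a difference of -1.15 that was called with the dka arrays alone (limma adjusted p = 0.0383) but not with all arrays, and 13 other settings gave adjusted p up to 0.562.

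Id3 was at 7.90, 5.21 and 8.96 in dka Group3 tumors, against 10.80, 10.32 and 10.52 in Group3 neurospheres. Tumor replicate 2 was the low one, and no tumor array reached a neurosphere array. Id3 fell by 3.19 (SE 0.82, limma adjusted p = 0.0119), but without tumor replicate 2 the difference was -2.12 (adjusted p = 0.0835). Id4 overlapped, at 8.54, 5.63 and 7.85 in tumors and 6.48, 7.99 and 6.03 in neurospheres, and Id1 and Id2 overlapped too. None of these 3 genes was called.

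Of the other ligands and receptors 2 of 6 rose in dka Group3 tumors: Dll3, a divergent ligand that in the mouse acts inside the cell, by 4.16 (SE 0.92, limma adjusted p = 0.00442), and the non-canonical ligand Dlk1 by 2.96 (SE 0.63, limma adjusted p = 0.00308). Of the processing genes 2 rose and 5 fell, and the fucose-modifying glycosyltransferase genes went opposite ways, Mfng with 3.01 and Lfng with -0.91. Of the nuclear factors and targets 2 rose and 1 fell. Hes6, which in mouse neurogenesis opposes Hes1, rose by 0.93 (SE 0.18, limma adjusted p = 0.00119), and the Groucho-family co-repressor gene Tle2 fell by 3.50. Of the BMP and Smad genes 3 rose and 2 fell, with Bmp7 at -1.88 and the inhibitory Smad7 at 1.25. Of the bHLH factors 3 rose and 3 fell. Neurod1 rose by 7.83 and Nhlh1, another neuronal factor, by 4.0, while Olig1 fell by 5.46 and Olig2 by 4.14.

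Astrocyte genes averaged 6.97, 4.96 and 7.29 on dka tumor replicates 1, 2 and 3, against 7.49 to 7.71 in neurospheres, and replicate 2, the lowest for Id3, was the lowest of the 3. Neural stem cell genes averaged 6.65 to 7.72 in tumors and 8.47 to 8.75 in neurospheres, with 3 of 8 lower and 2 higher. Endothelial genes averaged 5.03 to 6.43 in tumors and 3.99 to 4.09 in neurospheres (8 of 10 higher), and microglial genes averaged 6.46 to 7.06 in tumors and 3.74 to 3.97 in neurospheres (8 of 10 higher). The share of these cells in the members' differences was not tested.

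Set against Trp53 neurospheres, Group3 tumors had less Hes1 and less Hey1. Of the 15 probe sets, 2 were lower and 0 higher (13.3% called, against 14.6% of all probe sets in either direction, 6.52% higher and 8.06% lower), a share near the background. Hes1, at 4.61, 4.45 and 5.15 in tumors and 5.39, 7.16 and 7.45 in Trp53 neurospheres, fell by 1.93 (SE 0.51, limma adjusted p = 0.0132), but was not called without Trp53 neurosphere replicate 2 (0.0689) or replicate 3 (0.0772). Hey1, at 6.37, 7.35 and 7.71 in tumors and 10.04, 9.83 and 9.41 in Trp53 neurospheres, fell by 2.61 (SE 0.58, 6.12-fold, limma adjusted p = 0.00424). Neither gene overlapped between the groups. Notch1, called in both comparisons with Group3 neurospheres, averaged 7.42 ± 0.78 in tumors and 7.11 ± 1.10 in Trp53 neurospheres (SD, n = 3 each) and was not called. Id3 differed by 1.62 (limma adjusted p = 0.212), which became 2.69 (0.0242) without tumor replicate 2, the lowest adjusted p of 13 other settings, which reached 0.609. In the lists, Notch3 rose by 1.43, Dlk1 by 3.36 and Nrarp by 2.01, while Bmp5 fell by 4.99 and Atoh1 by 5.27. Astrocyte genes averaged 4.96 to 7.29 in tumors and 5.31 to 5.89 in Trp53 neurospheres, and microglial genes 6.46 to 7.06 in tumors and 6.36 to 6.98 in Trp53 neurospheres. Granule genes averaged 6.83 to 7.21 in tumors and 9.11 to 9.43 in Trp53 neurospheres, with 5 of 9 lower. Vessel markers were higher in tumors, with 4 of 10 endothelial genes called, among them Vwf at 2.06 (SE 0.34, limma adjusted p = 0.000311), and 2 of 4 pericyte genes, Rgs5 at 2.41 (SE 0.49, limma adjusted p = 0.00225) and Pdgfrb at 1.19. Hba-a1 fell by 1.46 (limma adjusted p = 0.0307). The astrocyte gene Slc1a3 fell by 1.05. The astrocyte list, however, averaged 6.97, 4.96 and 7.29 on tumor replicates 1, 2 and 3. Replicates 1 and 3 lay above every Trp53 neurosphere array, and replicate 2 below every one. The stem cell gene Sox9 fell by 3.81, while the stem cell list averaged 6.65 to 7.72 in tumors and 7.58 to 8.34 in Trp53 neurospheres. The part of these cells in the Hes1 and Hey1 differences was not tested.

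Between secondary tumors and Group3 tumors no member was called. By limma 0 of the 15 probe sets were called (2.28% of all probe sets were) and 0 had an unadjusted p under 0.05. Hes1 was at 4.21, 5.20 and 4.67 in secondary tumors and 4.61, 4.45 and 5.15 in Group3 tumors, a difference of -0.043 with a 95% interval of -1.10 to 1.02. The interval still allows a change of about 1 log2 unit either way, so equal levels were not shown. Id3 was at 6.55, 6.19 and 6.59 in secondary tumors, inside the wide range of 5.21 to 8.96 in Group3 tumors. The E3 ligase gene Mib2, which serves Notch ligand uptake, fell by 0.90 (SE 0.20, limma adjusted p = 0.02), and Spen, a co-repressor that binds Rbpj, fell by 0.97 (SE 0.24, limma adjusted p = 0.0372).

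Secondary tumors compared with the same dka Group3 neurospheres as above gave 5 of 15 lower and 0 higher (33.3% called, against 21.9% of all probe sets in either direction, 11.1% higher and 10.7% lower). Notch1 was at 6.72, 7.22 and 7.56 in secondary tumors and fell by 3.40 (SE 0.70, limma adjusted p = 0.00141), and its second probe set fell by 2.41 (limma adjusted p = 0.0037). Hes1 fell by 3.15 (SE 0.51, limma adjusted p = 0.000173) and Id3 by 4.11 (SE 0.82, limma adjusted p = 0.0011). For all 3 genes every secondary tumor array lay below every neurosphere array. Hes5, at 4.11, 4.89 and 4.50 in secondary tumors, fell by 2.68 (SE 0.85, limma adjusted p = 0.0291), but not without neurosphere replicate 1 (0.147) or 2 (0.0963), or secondary tumor replicate 1 (0.0891) or 3 (0.0634). Beyond the members, Notch3 fell by 1.46, Dtx4 by 1.99 and Bhlhe40, a bHLH repressor gene, by 2.02. Dll3 rose by 2.64, Mfng by 3.90 and Hes6 by 1.17, and Neurod1 by 7.99. Astrocyte genes averaged 4.84 to 5.29 in secondary tumors and 7.49 to 7.71 in neurospheres, with 4 of 8 lower, and endothelial genes averaged 5.31 to 5.56 in secondary tumors and 3.99 to 4.09 in neurospheres, with 9 of 10 higher.

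**Figure D3:**
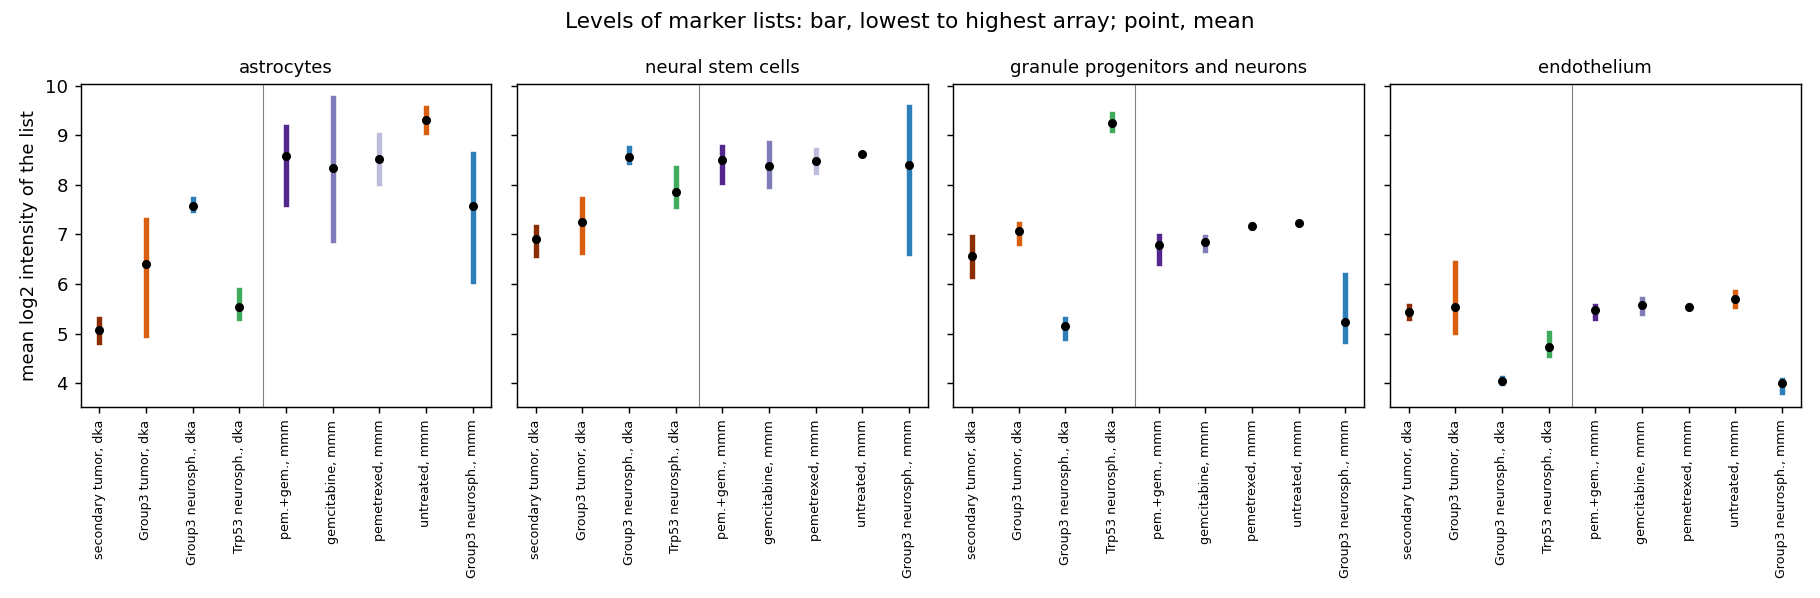
Mean log2 intensity (vertical axis) of the genes of 4 cell type marker lists in each group; the bar runs from the lowest to the highest array and the point is the group mean. Astrocyte genes span 4.96 to 7.29 in dka Group3 tumors and 7.49 to 7.71 in dka Group3 neurospheres, and the granule list is highest in Trp53 neurospheres.

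Under the code mmm, Hes1 and the second Notch1 probe set were lower in untreated Group3 tumors than in Group3 neurospheres. Of the 15 probe sets, 2 were lower and 0 higher (13.3% called, against 17.5% of all probe sets in either direction, 8.1% higher and 9.35% lower), a share near the background. Hes1 was at 5.06 and 4.93 in untreated tumors, against 7.17, 8.13, 7.81 and 7.47 in neurospheres. No array overlapped, and Hes1 fell by 2.65 (SE 0.54, 6.28-fold, limma adjusted p = 0.00202). The neurosphere levels of the 2 codes are tied to each other, as given above, so this is not a second independent measurement.

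Notch1 was at 8.97 and 8.24 in untreated tumors, against 8.41, 10.91, 11.83 and 11.35 in neurospheres. Neurosphere replicate 4 fell within the tumor range. Its brightest probe set gave -2.02 (SE 0.74, limma adjusted p = 0.0655) and its second fell by 2.25 (SE 0.59, limma adjusted p = 0.012). Replicate 4 was also the lowest neurosphere array for Dll1 at 5.23, Hes5 at 5.76, Id2 at 5.57 and Id4 at 4.85. Without it, 6 of the 15 probe sets were called, among them Dll1 with -2.74 (limma adjusted p = 0.0342). The count over all probe sets also moved when an array was left out, and only its range is given, in the last section. The count of 6 therefore has no matching share beside it.

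Id4 was at 10.10 and 10.04 in untreated tumors and at 4.85, 7.50, 9.86 and 7.995 in neurospheres, which gave 2.52 as the difference (SE 1.14, limma adjusted p = 0.14). The tumor arrays were above all 4 neurosphere arrays, but the spread among neurospheres was wide and the difference was not called, except without neurosphere replicate 6 (3.29, limma adjusted p = 0.0465). Id3 was at 8.34 and 9.26 in untreated tumors and 8.55, 11.68, 11.10 and 9.59 in neurospheres, which overlapped. Astrocyte genes averaged 9.06 to 9.55 in untreated tumors and 6.07 to 8.62 in neurospheres, with 2 of 8 higher and 1 lower, and microglial genes averaged 8.41 to 8.50 in untreated tumors and 3.71 to 3.96 in neurospheres, with 10 of 10 higher. The part of these cells in the members' levels was not tested. In the lists Dll3 rose by 3.07 (SE 0.98, limma adjusted p = 0.0353), and Aph1b fell by 1.68, Dtx4 by 1.67 and Bmp7 by 1.73, while Neurod1 rose by 6.03.

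The tumor minus neurosphere differences themselves were compared between the codes, mmm minus dka. By limma 0 of the 15 probe sets were called (6.35% of all probe sets were) and 0 had an unadjusted p under 0.05. The Hes1 difference was 0.45 with a 95% interval of -1.09 to 1.996.

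**Figure D4:**
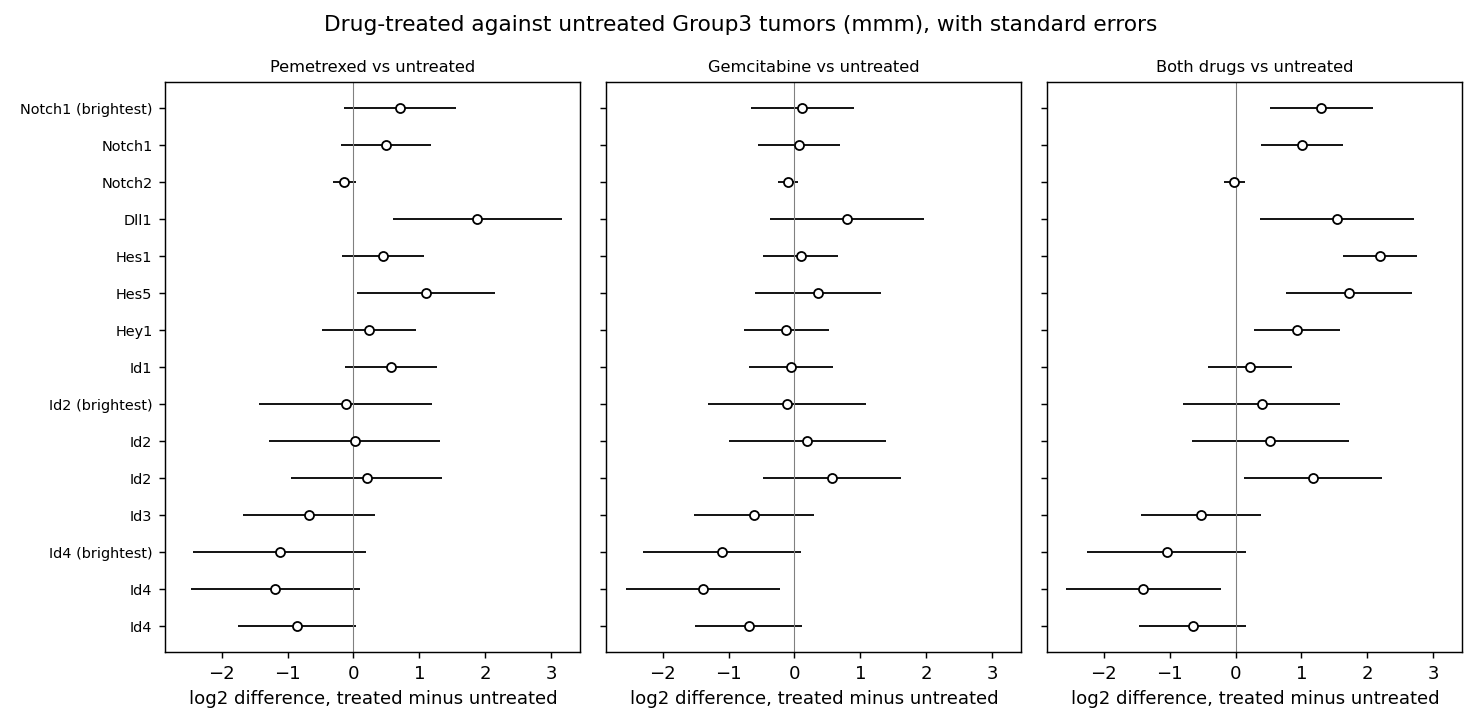
Log2 differences (horizontal axis) of the 15 probe sets (rows) in tumors given pemetrexed, gemcitabine or both, minus the same untreated tumors, with bars of 1 SE. All points are open because none passed an adjusted p of 0.05, and Hes1 under both drugs, at 2.19, lies farthest to the right.

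After drug treatment, Hes1 on the arrays of tumors given both drugs stood apart from the untreated arrays, but no member passed the threshold in any drug comparison. By limma 0 of 15 probe sets were called for pemetrexed plus gemcitabine (0.0688% of all probe sets), 0 for gemcitabine (0.00888%) and 0 for pemetrexed (0.00444%), all against the same 2 untreated arrays. At an unadjusted p under 0.05 the counts were 1, 0 and 0, and that 1 was Hes1.

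Hes1 was at 7.60, 6.36 and 7.61 in tumors given both drugs, 4.89, 4.28 and 6.10 with gemcitabine, 5.92 and 4.96 with pemetrexed, and 5.06 and 4.93 untreated. All 3 arrays of the combination lay above every other treated or untreated tumor array of this code, and 2 of them within the neurosphere range of 7.17 to 8.13. The difference of both drugs from untreated was 2.19 (SE 0.57, 4.58-fold, unadjusted p = 0.000972, limma adjusted p = 0.274), and over 12 other settings the adjusted p ran from 0.00919, with array weights, to 0.97. The mean was 7.19 ± 0.72 (SD, n = 3) with both drugs and 4.996 ± 0.094 (SD, n = 2) untreated.

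Against gemcitabine alone, Hes1 with both drugs differed by 2.10 (SE 0.51, unadjusted p = 0.000519, limma adjusted p = 0.443, and over 13 other settings from 0.0164, with array weights, to 1), where 0 of 15 members and 0% of all probe sets were called, with 1 member at an unadjusted p under 0.05. Against pemetrexed alone it differed by 1.75 (SE 0.57, unadjusted p = 0.0059, limma adjusted p = 1), with 0 of 15 members and 0.00666% of all probe sets called. The test of the interaction, the combination beyond the sum of the single drugs, gave 1.65 for Hes1 (SE 0.80, unadjusted p = 0.0523, limma adjusted p = 0.992), with 0 of 15 members and 0% of all probe sets called and 0 members at an unadjusted p under 0.05.

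Hes5, Notch1 and Dll1 also stood above the untreated arrays on all 3 arrays of the combination, and Id4 below them, without a call. Groups this small can often separate without any change, and the share of all probe sets that did so was not counted. Notch1 was at 9.70, 9.52 and 10.50 with both drugs, 8.33, 7.91 and 9.94 with gemcitabine, 9.31 and 9.31 with pemetrexed, and 8.97 and 8.24 untreated. Hes5 was at 7.13, 7.23 and 9.25 with both drugs, 6.04, 5.51 and 7.99 with gemcitabine, 7.65 and 6.85 with pemetrexed, and 6.26 and 6.04 untreated. Dll1 was at 9.02, 8.27 and 8.26 with both drugs, 7.11, 7.01 and 9.19 with gemcitabine, 9.05 and 8.66 with pemetrexed, and 7.37 and 6.59 untreated. All 3 genes were above the untreated arrays on both pemetrexed arrays too, and overlapped with them under gemcitabine. Id4 was at 8.41, 9.54 and 9.11 with both drugs, against 10.10 and 10.04 untreated. Gemcitabine replicate 3 was the highest of its group for Notch1 at 9.94, Hes5 at 7.99, Hey1 at 9.32, Dll1 at 9.19 and Id4 at 10.46. Its astrocyte genes averaged 9.75, the highest of the 3 gemcitabine arrays, whose lowest was 6.88. Astrocyte genes averaged 7.61 to 9.16 with both drugs and 9.06 to 9.55 untreated. Red blood cell genes averaged 9.11 to 9.46 with both drugs and 8.42 to 8.57 untreated, and granule genes 6.43 to 6.98 with both drugs and 7.22 to 7.26 untreated, so neither list overlapped between these groups. Olig2, a progenitor and oligodendrocyte factor, was at 8.43 to 10.2 with both drugs and 11.3 to 11.4 untreated. No gene of these lists was called, and the part of these cells in the Hes1 level was not tested. No gene of the Notch, BMP or bHLH lists was called in a drug comparison.

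Within groups, some pairs of members varied together and others did not. After each array's group mean was subtracted, Pearson r over the 26 arrays was over 0.5 in 13 of 45 pairs of members (28.9%, against 4.05% of all pairs of the 17097 genes) and under 0 in 12 (26.7%, against 49.1%). Mmm Group3 neurosphere replicate 4 was also left out, after the data were seen. The counts were then 10 (22.2%, against 4.26% of all pairs) and 11 (24.4%, against 49.4%). Dll1 and Hes5 had an r of 0.81, Dll1 and Id4 0.80, Notch1 and Id4 0.80, Notch1 and Dll1 0.78, and Notch1 and Hes5 0.70. Without that replicate these were 0.72, 0.70, 0.70, 0.59 and 0.54. Several pairs with Id2 shifted more: Notch1 and Id2 went from 0.64 to 0.03, and Dll1 and Id2 from 0.48 to -0.57. Hes1 and Id2 changed little, from 0.26 to 0.20. Hes1 had its highest r with Notch1, 0.60, and Id1 and Notch2 had low or negative values with most members. These points share arrays, their normalization and any difference in cell makeup, so r is given as a description. With the mean level of the astrocyte list, r was 0.80 for Id4, 0.78 for Notch1, 0.77 for Id3, 0.60 for Hes5 and 0.37 for Hes1. With the neural stem cell list it was 0.81 for Notch1, 0.79 for Id2, and 0.76 for both Id3 and Id4. Without that replicate the astrocyte list gave 0.74 for Id4, 0.71 for Notch1, 0.70 for Id3, 0.46 for Hes5 and 0.32 for Hes1, and the stem cell list gave 0.61 for Notch1, 0.37 for Id2, 0.73 for Id3 and 0.65 for Id4.

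**Figure D5:**
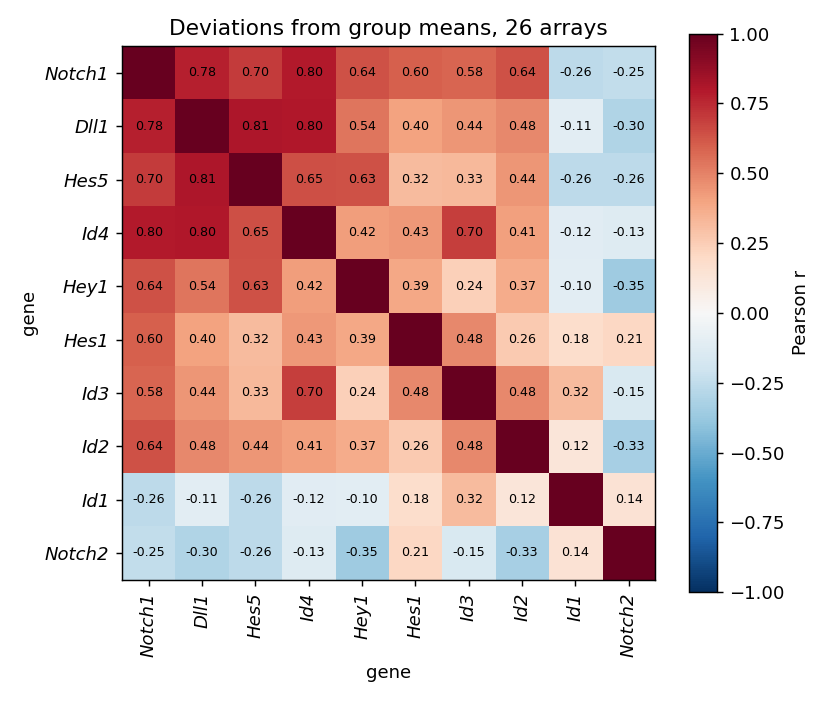
Pearson r between the brightest probe sets of the 10 genes (both axes), computed over 26 arrays after each group's mean was subtracted; red is positive and blue negative. Dll1 and Hes5 reach 0.81, while Id1 and Notch2 are pale or blue with most other genes.

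The genes most like each member were found over the 26 arrays, from 9986 genes. Within each title code only the midpoint of the Group3 tumor and Group3 neurosphere means was subtracted. Differences between groups therefore enter these values, which cannot be set beside the r within groups above. For Notch1 they were Sox8 (r = 0.96) and Mfge8 (0.92), for Hes1 Pald1 (0.94) and Gnai2 (0.91), and for Hes5 Garem2 (0.89) and Ccdc141 (0.87). For Id3 they were Tsc22d4 and Prrx2, both at 0.91, and for Hey1 Stk25 and Stx6, both at 0.82. Without the mmm neurospheres, r was 0.94 for Sox8 and 0.93 for Pald1, but for Id2 it was 0.68 for Tmsb4x, which had 0.92 over all arrays, and for Dll1 it was 0.62 for Rhbdl3, which had 0.80. Notch2 was nearest to Pepd (0.80), Id1 to Armcx6 (0.73) and Id4 to St8sia4 (0.77).

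Probe sets of one gene were compared by Pearson r of the deposited levels over 26 arrays. No group or code mean was removed here, so differences between groups and codes enter these values. The 2 Notch1 probe sets had 0.94, and the 3 Id4 probe sets 0.96 to 0.97. The 2 brighter Id2 probe sets had 0.98, while the dimmest had 0.34 and 0.45 with them. The dimmest Id2 probe set also had a difference of opposite sign between untreated mmm tumors and neurospheres, -2.02 against 1.48 for the brightest, and between dka tumors and neurospheres, 0.33 against -0.41, none of them called.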

How the data were processed

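Levels were the log2 intensities that the authors deposited for 26 Affymetrix HT MG-430 PM arrays. They were made with RMA, with Partek 6.6 also named, per the submitters' processing notes. RNA was amplified and labelled with NuGEN kits, per the labels. How the title codes were combined is not given in the sources used here. From these values, 45037 of 45141 probe sets (104 controls left out) were fitted with limma 3.58.1 in R 4.3.3, with 9 group-by-code means over all 26 arrays sharing one variance, and Benjamini-Hochberg adjustment at 0.05. The fit was tested on simulated data. Probe sets were named by the platform annotation, 28898 with 1 symbol. A member was described by the probe set with the highest mean. Up to 4 called genes of each pathway list with the largest differences were eligible to be named, and the 2 genes with the highest r per member. The number of arrays limits the precision. The members, gene lists and tests were chosen with earlier results of these data known. Other settings were the arrays of a title code alone, quantile normalization, dim probe sets left out, trend and robust variances, array weights, each array left out in turn, and other ways to read a gene from its probe sets. Some genes of the lists are not analysed here.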

Additional observations from a re-analysis of the deposited data

How the results depend on the processing

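Of 14 called member differences, none turned sign under 183 alternative values, 169 stayed called and 14 did not. Of 116 uncalled differences, 18 of 1554 values passed the threshold. Group3 tumors against dka Group3 neurospheres kept 3 to 5 called probe sets with each array left out in turn (5 with all arrays), and Group3 tumors against Trp53 neurospheres 1 to 3 (2 with all). Untreated tumors against mmm Group3 neurospheres had 2 called probe sets of members, but 1 with the mmm arrays alone, 8 with array weights, 1 to 6 with an array left out, and 4 without neurosphere replicates 4 and 7, a choice made after seeing the data. Over all probe sets that comparison called 7860, against 13541 with array weights and 3021 to 8381 with an array left out. Array weights made 1 member (Hes1) called for both drugs against untreated (all probe sets 1434, against 31) and 1 for both drugs against gemcitabine (251, against 0). They also raised the count over all probe sets to 5975 for gemcitabine (4 unweighted), 218 for pemetrexed (2), 580 for the drug interaction (0), 2029 for secondary against Group3 tumors (1029) and 5242 for the difference between the codes (2862), with no member called in these 5. The difference between the codes had 0 to 1 called with an array left out. Quantile normalization and trend and robust variances left every count of called members as it was, and so did leaving out dim probe sets, except for untreated tumors against mmm neurospheres (3). The dka arrays alone gave 5 for Group3 against Trp53 neurospheres (4 with all) and 6 for Group3 tumors against dka neurospheres (5 with all). No matching count over all probe sets is given here for arrays of a code alone or for dim probe sets left out. It is also missing without neurosphere replicates 4 and 7, and with an array left out except for the mmm range above. A change among the members cannot be told there from a change over all probe sets. The causes were not tested. No scaling moved the median of all probe sets by over 0.1. No paired analysis was possible because the labels give no replicate numbers. Groups of 2 to 4 arrays limit precision, and Hes1 and Hes5 were near or below the array medians in dka tumors.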
